A study of Mus musculus with 6 samples.

Results

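Sprr2 genes encode small proline-rich proteins, and 9 of them were followed one by one through 6 libraries of mouse macrophages. They were chosen by name and by their counts in the M1 libraries, as the rows whose symbol begins with Sprr2 and that held at least 10 reads in M1 or in RM1 macrophages. This rule took 9 of the 11 Sprr2 rows in tables of 24062 genes: Sprr2b, Sprr2d, Sprr2e, Sprr2f, Sprr2g, Sprr2h, Sprr2i, Sprr2j-ps and Sprr2k. Because M1 and RM1 counts selected the members, every value against or within these libraries is given as a description. The nearest member inside the limit was Sprr2b, with 2 reads in M1 and 10 in RM1, and the rows outside it, Sprr2a1 and Sprr2a2, had 0 reads in M1, in RM1 and in the other 4 libraries.

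RNA was sequenced from RAW264.7 cells, an established mouse macrophage line, with 1 library per condition made from pooled wells. The M0 state was left unpolarized, the M1 state was given LPS at 100 ng/mL with IFN-γ at 20 ng/mL for 24 h, and the M2 state was given IL-4 at 20 ng/mL for 24 h. RM0, RM1 and RM2 were the corresponding states exposed to 10 Gy of gamma rays and kept for 24 h more, and the sources used here do not say whether the non-irradiated cultures were kept for those hours as well, so irradiation and the added time cannot be told apart. The labels name bone marrow as the source, whereas their culture protocol and cell line entry name RAW264.7. With 1 library per condition no difference has a replicate check and no p-value is given. The deposited values were read counts per gene, and the libraries held 17894937 to 18870516 counted reads, so that 1 read was worth 0.0493 to 0.0676 CPM (counts per 1000000 scaled reads) after TMM scaling, edgeR's method for making libraries comparable. All 9 macrophage markers found had at least 10 counts and summed to 23818 to 38770 CPM per library. In bulk RNA, fewer cells of a type and less RNA per cell cannot be told apart.

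Small proline-rich proteins are best known from the skin. Keratinocytes make them late in differentiation, and transglutaminases crosslink them with involucrin, loricrin and other proteins into the cornified envelope, the tough layer under the membrane of the dead surface cells. Their genes lie in the epidermal differentiation complex, a cluster that also holds the loricrin, filaggrin, late cornified envelope and S100 genes, and they are also known as genes that epithelia switch on under stress. A stretch rich in proline, cysteine and glutamine, built of short repeats, is the hallmark of the family.

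The 9 genes lay side by side on the plus strand of chromosome 3, from 92316705 to 92433927 (GRCm38), a span of 117 kb with 8.73 to 22.4 kb from one start to the next. Their order along the chromosome followed the alphabet from Sprr2b to Sprr2k, and none overlapped another annotated gene. RefSeq lists Sprr2g and Sprr2j-ps as transcribed pseudogenes, while GENCODE lists Sprr2g as a polymorphic pseudogene and Sprr2j-ps as protein-coding with a reading frame of 327 bases. The other 7 are listed as coding in both. In 6 members, Sprr2d to Sprr2i, every library held at least 10 reads, and these 6 carried 97.6% to 99.9% of the Sprr2 reads of each library. The reading frames of 3 of these 6, Sprr2e, Sprr2f and Sprr2i, have the same length and are shown to let the members be compared. Each is 228 bases long, or 76 codons, of which 30 code for proline. They were taken from GENCODE M21 transcripts on the plus strand of GRCm38, Sprr2e at chr3:92352864-92353091, Sprr2f at chr3:92365896-92366123 and Sprr2i at chr3:92408716-92408943, and capitals mark the 27 positions at which the 3 are not all alike.
Sprr2e: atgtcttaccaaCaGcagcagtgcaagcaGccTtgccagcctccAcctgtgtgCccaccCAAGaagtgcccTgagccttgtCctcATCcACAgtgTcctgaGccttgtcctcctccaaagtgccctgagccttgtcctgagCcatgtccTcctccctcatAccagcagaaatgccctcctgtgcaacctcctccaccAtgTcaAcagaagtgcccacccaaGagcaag
Sprr2f: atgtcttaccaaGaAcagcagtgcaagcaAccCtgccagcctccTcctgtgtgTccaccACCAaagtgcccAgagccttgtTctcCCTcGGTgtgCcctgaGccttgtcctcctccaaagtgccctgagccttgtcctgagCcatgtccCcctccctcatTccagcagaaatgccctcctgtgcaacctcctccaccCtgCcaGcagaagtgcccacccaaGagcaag
Sprr2i: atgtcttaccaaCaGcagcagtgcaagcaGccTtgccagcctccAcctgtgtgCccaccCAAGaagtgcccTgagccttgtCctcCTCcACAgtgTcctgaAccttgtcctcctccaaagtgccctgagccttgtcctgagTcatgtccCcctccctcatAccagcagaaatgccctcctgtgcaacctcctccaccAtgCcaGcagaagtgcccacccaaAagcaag

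Sprr2e and Sprr2i differed at 7 of these bases (96.9% identity), Sprr2e and Sprr2f at 24 (89.5%), and Sprr2f and Sprr2i at 23 (89.9%). Of the 7 genes that both list as coding, the other 4 had reading frames of other lengths. In them proline codons made up 35 of 85 codons in Sprr2d, 41 of 98 in Sprr2b, 46 of 108 in Sprr2h and 21 of 68 in Sprr2k, the lowest share of the 7 at 30.9%. Over whole transcripts, aligned pairs of members were between 74.4% identical, for Sprr2e and Sprr2k, and 86.3% identical, for Sprr2d and Sprr2e. Identity of this degree matters for counting, since a read that matches several copies can be lost or split. Cut into all windows of 100 bases, 6 of the 548 windows of Sprr2e were also found in Sprr2i, 3 of the 685 windows of Sprr2b were also found in Sprr2a1, and no window of Sprr2d, Sprr2f, Sprr2g, Sprr2h, Sprr2j-ps or Sprr2k was found in another transcript of the family. The rows left out were the opposite case, because 92.5% of the windows of Sprr2a1 and 92.8% of those of Sprr2a2 were shared with other copies, and the tables list both at the same position. Whether their 0 reads came from this sharing was not tested, and they give no measurement of these copies.

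Promoters of the members were alike as well. RefSeq promoters (GRCm38.p6) were found for 7 of the 9, Sprr2b, Sprr2d, Sprr2e, Sprr2f, Sprr2h, Sprr2i and Sprr2k, and not for Sprr2g and Sprr2j-ps. The 250 bases before the start are shown for Sprr2d and Sprr2f, the members with the most reads, for Sprr2k, a member with few reads, and for Sprr2a1, which the rule left out. They lie on the plus strand at chr3:92338890-92339139 (Sprr2d), chr3:92364937-92365186 (Sprr2f), chr3:92432332-92432581 (Sprr2k) and chr3:92215585-92215834 (Sprr2a1). Capitals mark, from left to right, matches to the AP-1 motif (TGANTCA), to the octamer on the minus strand (ATGCAAAT, read as ATTTGCAT) and to the TATA box (TATAAA), with a pair of AP-1 matches in Sprr2k and no match in Sprr2a1.
Sprr2d: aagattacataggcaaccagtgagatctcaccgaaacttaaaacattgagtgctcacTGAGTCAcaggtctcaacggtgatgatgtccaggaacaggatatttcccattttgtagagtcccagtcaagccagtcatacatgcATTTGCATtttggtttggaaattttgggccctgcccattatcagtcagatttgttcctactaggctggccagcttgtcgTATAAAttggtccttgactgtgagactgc
Sprr2f: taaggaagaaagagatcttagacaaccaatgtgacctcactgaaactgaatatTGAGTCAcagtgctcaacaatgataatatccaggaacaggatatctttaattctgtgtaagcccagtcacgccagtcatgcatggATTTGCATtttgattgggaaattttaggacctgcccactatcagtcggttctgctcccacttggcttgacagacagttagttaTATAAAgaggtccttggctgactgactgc
Sprr2k: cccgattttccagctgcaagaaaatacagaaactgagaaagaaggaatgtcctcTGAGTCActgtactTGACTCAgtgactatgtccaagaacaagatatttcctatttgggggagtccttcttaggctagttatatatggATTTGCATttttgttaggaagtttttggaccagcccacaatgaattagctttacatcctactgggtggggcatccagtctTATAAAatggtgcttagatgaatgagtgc
Sprr2a1: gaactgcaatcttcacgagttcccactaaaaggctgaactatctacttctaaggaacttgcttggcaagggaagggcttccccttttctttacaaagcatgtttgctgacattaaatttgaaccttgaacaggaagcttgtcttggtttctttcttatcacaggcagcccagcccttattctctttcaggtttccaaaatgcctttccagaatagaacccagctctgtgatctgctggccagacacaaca

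All 7 promoters held the TATA box with its first base at -29 from the start, the octamer with its first base between -112 and -108, and an AP-1 match with its first base between -198 and -193. Sprr2k held a second AP-1 match at -182. Among 32851 RefSeq promoters, searched over the same 250 bases on both strands, 12.4% held the TATA box, 6.75% the AP-1 motif and 1.60% the octamer, and the 3 occurred together in 14 promoters (0.0426%), of which 7 were those of the Sprr2 members. This combination was picked after the members' matches had been seen. The promoters of Sprr2a1, Sprr2a2 and Sprr2a3 held none of the 3 motifs, and each held instead an ISRE core (GAAANNGAA, the core of the interferon-stimulated response element), which 7.13% of all promoters held. For the 7 members the promoter ended just before the start listed with the counts. Those of Sprr2a1 and Sprr2a2 ended at 92215834 and 92250646, whereas both rows are listed from 92253886. Whether matching stretches were compared in members and Sprr2a copies was not tested. Of the members, 1 of 7 held an ISRE core, Sprr2f at -209, and 1 of 7 a GC box (GGGCGG, in 32.7% of all promoters), Sprr2h at -47. No member promoter matched GAS (TTCNNNGAA, 7.02% of all promoters), CRE/ATF (TGACGTCA, 1.55%), C/EBP (TTGCGCAA, 0.164%), the E-box (CACGTG, 6.02%) or the NF-kB motif (7.25%). These matches describe letters within 250 bases, and binding of any factor was not measured.

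**Figure D1:**
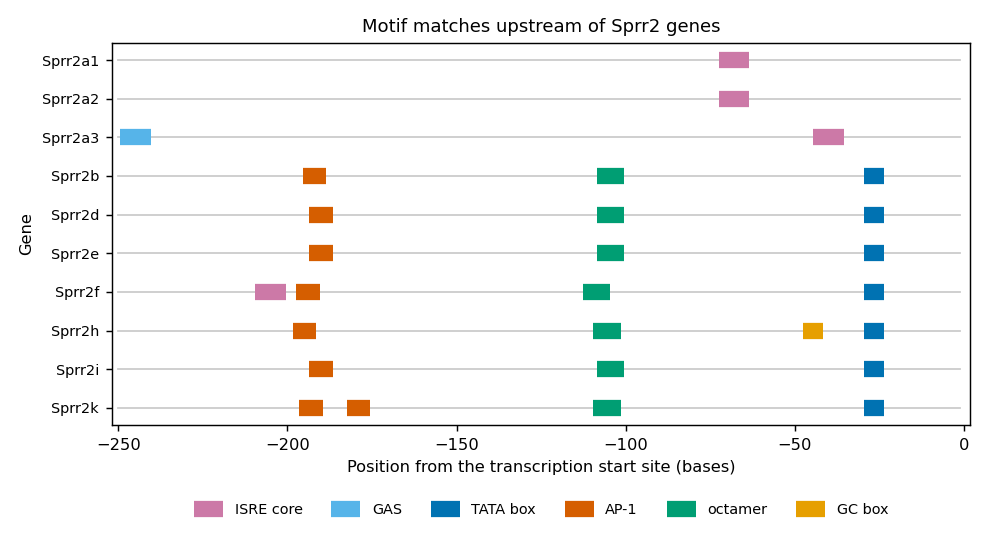
Motif matches in the 250 bases before the start of 7 Sprr2 members and of the 3 Sprr2a copies, with the position from the start in bases on the horizontal axis, 1 gene per row, and coloured blocks for matches on either strand. The TATA box at -29, the octamer from -112 to -108 and an AP-1 match from -198 to -193 recurred in all 7 members. The promoters used for the 3 Sprr2a copies held none of them, but those of Sprr2a1 and Sprr2a2 do not end at the listed start of these rows.

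Summed over the members, M1 and RM1 held by far the most Sprr2 reads. There were 318 Sprr2 reads in M0, 7119 in M1 and 294 in M2, against 895, 16020 and 743 in the irradiated RM0, RM1 and RM2. As scaled levels this was 16 CPM in M0, 481 in M1 and 14.5 in M2, against 45.7, 961 and 37.4 in their irradiated counterparts. Even in RM1 the family took 0.0849% of all counted reads. For 4 of the 6 abundant members, and for the sum, the libraries stood in the order RM1, M1, RM0, RM2, M0 and M2. Sprr2h differed from this order in that M2 stood above M0, and Sprr2g in that RM2 stood above RM0 and M2 above M0. Neighbours in this order did not all differ beyond counting error. For the sum, M0 stood above M2 by 0.15 (-0.09 to 0.38) on the log2 scale, an interval that included no difference. M0 and M2 had an interval of their ratio that included 0 on the log2 scale in 5 of the 6 genes, the exception being Sprr2d, RM0 and RM2 in Sprr2h and Sprr2i, and the irradiated RM2 and the non-irradiated M0 in Sprr2e (0.53, -0.25 to 1.32). Intervals are exact 95% Clopper-Pearson intervals from the read counts of the libraries compared and cover counting error only, not the spread between cultures.

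**Figure D2:**
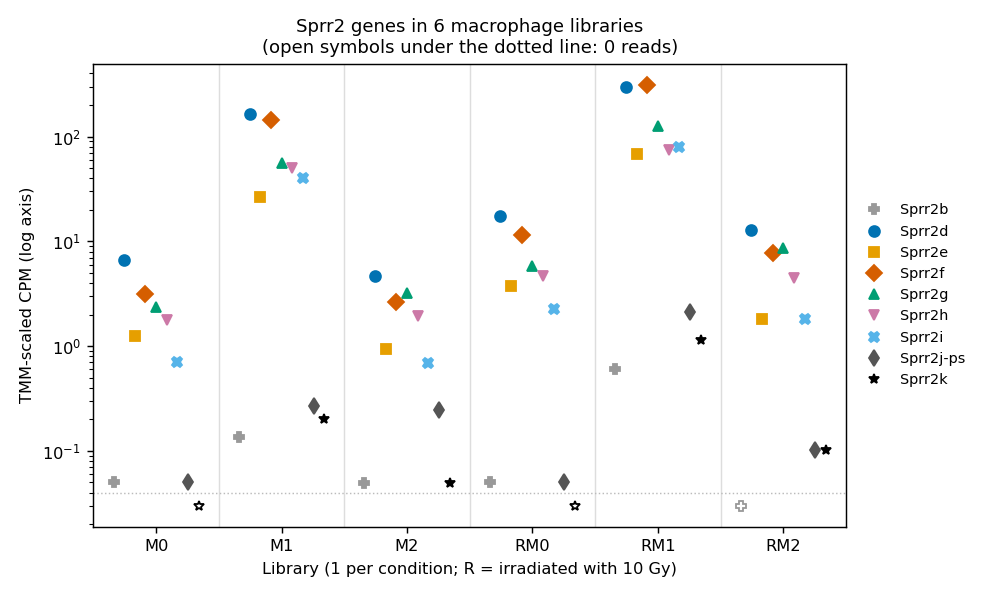
Level of each of the 9 Sprr2 members in each library as TMM-scaled CPM on a log axis, with 1 symbol per gene and library, and open symbols below the dotted line for libraries with 0 reads. The 6 genes from Sprr2d to Sprr2i stand highest in RM1, next in M1, and lie above Sprr2b, Sprr2j-ps and Sprr2k in every library.

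Sprr2d (NM_011470, exons within 92339140 to 92340873) codes for a small proline-rich protein of 85 codons and had the highest level per length in 5 of the 6 libraries. In M2 the interval of its ratio to Sprr2g included no difference (0.46 on the log2 scale, -0.01 to 0.94). Sprr2d had 132 reads in M0, 2429 in M1 and 95 in M2, against 343, 4966 and 252 in RM0, RM1 and RM2. Per kilobase of transcript its level was 9.77 CPM in M0, 241 in M1 and 6.88 in M2, against 25.7, 437 and 18.7 in the irradiated RM0, RM1 and RM2. Every irradiated library was above the non-irradiated one of its state, by 1.38 (1.10 to 1.70) on the log2 scale in RM0, 0.86 (0.788 to 0.929) in RM1 and 1.42 (1.09 to 1.80) in RM2. Sprr2d was 24.7-fold higher in M1 than in M0 and 17.0-fold higher in RM1 than in RM0, and with IL-4 it was lower, by -0.50 (-0.903 to -0.116) in M2 against M0 and -0.46 (-0.703 to -0.224) in RM2 against RM0.

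Sprr2f (NM_011472, 92365187 to 92366442) was second to Sprr2d per length in M0, M1 and RM0 and stood above it in RM1. Its counts were 63 in M0, 2120 in M1 and 54 in M2, against 228, 5207 and 155 in their irradiated counterparts, or 5.22, 235, 4.37, 19.1, 513 and 12.8 CPM per kilobase in the same order. In M0 the interval of its ratio to Sprr2g, the next gene, included no difference (0.52 on the log2 scale, -0.05 to 1.10). In M1 the interval of the ratio between Sprr2d and Sprr2f included no difference (0.04 on the log2 scale, -0.05 to 0.12), whereas in RM1 Sprr2f was higher by 0.23 (0.17 to 0.29). Of all members it rose most in RM0 over M0, by 1.84 (1.46 to 2.30), where it ranked 8th of 11688 genes. It rose by 1.12 (1.05 to 1.20) in RM1 over M1 and by 1.52 (1.10 to 2.03) in RM2 over M2, and it was 45.1-fold higher in M1 than in M0.

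Sprr2g (NR_003548, 92373915 to 92375229), the pseudogene among the abundant members, had 47 reads in M0, 820 in M1 and 66 in M2, against 113, 2083 and 171 in RM0, RM1 and RM2. Sprr2g was higher in all 3 irradiated libraries, by 1.25 (0.780 to 1.81) in RM0, 1.17 (1.05 to 1.29) in RM1 and 1.38 (0.988 to 1.84) in RM2. Its level with IL-4 went the other way from that of Sprr2d. It was higher by 0.44 (-0.104 to 1.03) in M2 than in M0 and by 0.57 (0.228 to 0.936) in RM2 than in RM0, and per length it stood second in M2 and RM2, where the interval of its ratio to Sprr2f included no difference (0.19, -0.35 to 0.74, in M2 and 0.05, -0.28 to 0.37, in RM2).

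Sprr2h (NM_011474, 92385685 to 92387319), with 108 codons the longest reading frame of the 7 genes listed as coding in both annotations, had 35 reads in M0, 748 in M1 and 39 in M2, against 91, 1234 and 89 in the irradiated RM0, RM1 and RM2. Its difference between RM1 and M1 was the smallest of the 9 members, 0.55 (0.417 to 0.682), below the 2-fold limit, while it was 1.34 (0.819 to 2.00) in RM0 over M0 and 1.18 (0.664 to 1.80) in RM2 over M2. Per length Sprr2h stood behind Sprr2d, Sprr2f and Sprr2g in every library, and last of the 6 in RM1, where it did not differ from Sprr2e beyond counting error (0.08, -0.03 to 0.20).

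Sprr2e (NM_011471, 92352143 to 92353449) and Sprr2i (NM_011475, 92407991 to 92409271) have the nearly identical reading frames printed above. Sprr2e had 25 reads in M0, 396 in M1 and 19 in M2, against 74, 1125 and 36 in their irradiated counterparts. Sprr2i had 14, 597, 14, 44, 1341 and 36 reads in these libraries, in the same order. Their whole transcripts were 81.3% identical, and their levels were not the same in every library. Per length Sprr2e was 0.68 (0.12 to 1.25) above Sprr2i in RM0, and Sprr2i was 0.66 (0.48 to 0.85) above Sprr2e in M1 and 0.32 (0.21 to 0.44) above it in RM1. In the other libraries the interval of their ratio included no difference. Sprr2e was above by 0.77 (-0.23 to 1.83) in M0 and 0.37 (-0.70 to 1.48) in M2, and Sprr2i by 0.07 (-0.64 to 0.78) in RM2. Sprr2i was 57.2-fold higher in M1 than in M0 and 35.8-fold higher in RM1 than in RM0, where it ranked 2nd of 11713 genes, against 21.2-fold and 17.9-fold for Sprr2e. Between RM1 and M1, Sprr2e had a difference of 1.33 (1.17 to 1.50) and Sprr2i of 0.99 (0.854 to 1.14), just under 2-fold.

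The other 3 members, Sprr2b, Sprr2j-ps and Sprr2k, were measured by few reads. Sprr2j-ps (NR_003185, 92418087 to 92419396), which the annotations class differently, had 1 read in M0, 4 in M1 and 5 in M2, against 1, 35 and 2 in RM0, RM1 and RM2. Sprr2k (NM_011477, 92432582 to 92433927), with the fewest proline codons of the 7, had 0, 3, 1, 0, 19 and 2 reads in the same order, and Sprr2b (NM_011469, 92316705 to 92318085) had 1, 2, 1, 1, 10 and 0. All 3 therefore reached 10 reads in RM1 and in no other library. Sprr2j-ps was higher in RM1 than in M1 by 2.54, Sprr2k by 2.00 and Sprr2b by 1.54. Without the prior count, which weighs on such low counts, the log2 ratio was 2.96 (1.47 to 4.91) for Sprr2j-ps and 2.49 (0.725 to 4.89) for Sprr2k. For Sprr2b it was 2.15 (-0.0818 to 5.38), an interval that included no difference. Against a limit of 3 reads in RM0, where it had 0, Sprr2k was at least 7.44-fold higher in RM1, a bound that leaves out the counting error of its 19 reads, and the exact interval of the ratio began at 2.46 on the log2 scale. Even in RM1 their levels per length were 3.10 CPM for Sprr2j-ps, 1.79 for Sprr2k and 0.765 for Sprr2b, against 98.4 for Sprr2h, the lowest of the other 6.

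Irradiation was compared within each state, with the question of which genes differed between irradiated and non-irradiated macrophages. Calls required a 2-fold difference or more, with 10 reads or more in 1 of the libraries compared. In RM0 against M0, whose counts the rule for members did not use, the 6 members with at least 10 reads in both libraries were all called higher. Their median was 1.44 (range 1.25 to 1.84), where the median of all genes was near 0. The family was picked with earlier results of these data known, so this count and those below are descriptions. Among all genes 84 of 11688 (0.719%) were called higher there, and the 6 members ranked 8th to 49th. Sprr2b, Sprr2j-ps and Sprr2k, with 0 or 1 read in each of these libraries, could not be compared. In RM2 against M2, 5 of 6 members were called higher, with a median of 1.32 (0.88 to 1.52), against 122 of 11801 genes (1.03%). The member not called was Sprr2e, whose 36 and 19 reads gave 0.88 (0.114 to 1.84). Sprr2j-ps, with 2 reads in RM2 and 5 in M2, did not reach the count limit.

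In RM1 against M1, 6 of the 9 members were called higher, namely Sprr2b, Sprr2e, Sprr2f, Sprr2g, Sprr2j-ps and Sprr2k, and all 9 were above 0, with a median of 1.17 (0.55 to 2.54). Of all genes 353 of 11443 (3.08%) were called higher in this comparison, but the members had been selected on M1 and RM1 counts and 3 of them passed only through RM1, so this count supports nothing. Sprr2d, Sprr2h and Sprr2i were not called. When libraries were scaled by their totals in place of TMM, Sprr2d reached 1.00 and Sprr2i 1.13, both called, while the median of all genes moved to 0.13. In both the RM0 and RM2 comparisons together, 5 members were called higher, Sprr2d, Sprr2f, Sprr2g, Sprr2h and Sprr2i, of 19 genes in all among 11577 (0.164%). In all 3 comparisons at once, 9 of 11174 genes (0.0805%) were called higher, and Sprr2f and Sprr2g were 2 of these.

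**Figure D3:**
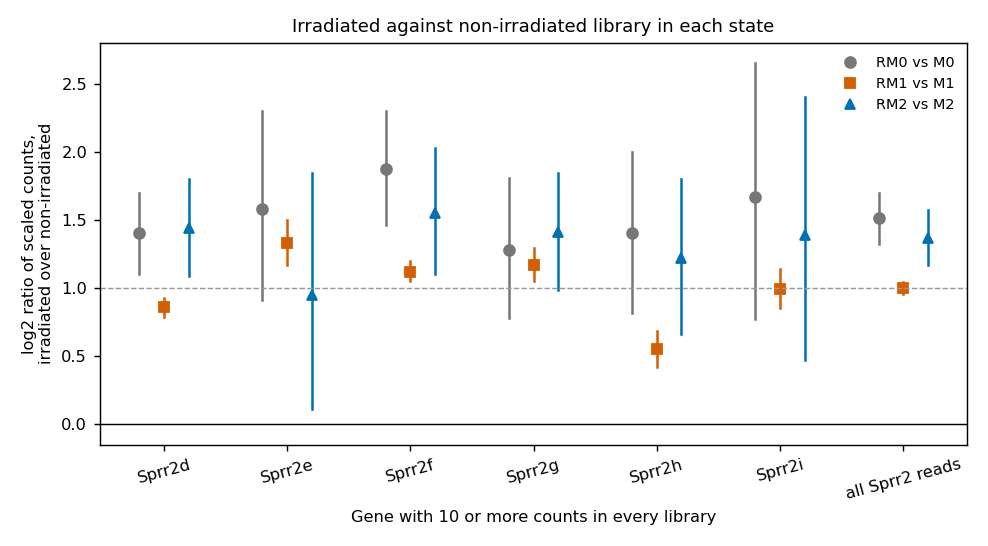
Log2 ratio of scaled counts, without a prior count, of the irradiated over the non-irradiated library for the 6 abundant Sprr2 genes and for all Sprr2 reads. Bars are exact 95% intervals of counting error and the dashed line marks a 2-fold difference. Every point lies above 0, and the RM1 ratio of Sprr2d, Sprr2f and Sprr2h lies below the RM0 ratio of the same gene.

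The ratio over the sum of Sprr2 reads was 1.50 (1.32 to 1.70) in RM0, 1.00 (0.956 to 1.04) in RM1 and 1.36 (1.17 to 1.57) in RM2. In terms of counting error the RM1 ratio of the sum was smaller than that of RM0, by -0.51 (-0.70 to -0.32), and smaller than that of RM2, by -0.37 (-0.57 to -0.17), while the interval between RM2 and RM0 included no difference (-0.14, -0.41 to 0.13). Gene by gene, the RM1 ratio lay below the RM0 ratio beyond counting error in Sprr2d (-0.54, -0.83 to -0.24), Sprr2f (-0.75, -1.16 to -0.34) and Sprr2h (-0.85, -1.42 to -0.27). For Sprr2g the difference between RM1 and RM0 was -0.11 (-0.62 to 0.39), and for Sprr2e and Sprr2i the intervals also included no difference. With library totals, an alternative added after the data had been seen, the difference of the sum between RM1 and RM0 was -0.32 (-0.51 to -0.13) and that between RM1 and RM2 was -0.18 (-0.38 to 0.02), which included no difference, and the Sprr2d difference between RM1 and RM0 was -0.34 (-0.64 to -0.05) and that of Sprr2g 0.08 (-0.42 to 0.59). The differences with RM1 contain M1 and RM1, on whose counts the members were selected, so they are descriptions only. All these differences were taken between ratios without the prior count. Their intervals use a normal approximation to the counting error, and no spread between cultures enters them. In absolute terms RM1 stood first, since the sum was higher by 479 CPM in RM1 than in M1, by 29.6 CPM in RM0 than in M0 and by 23.0 CPM in RM2 than in M2.

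Polarization with LPS and IFN-γ was compared among the non-irradiated and among the irradiated libraries. In M1 against M0, 6 of the 6 members tested were called higher, with a median of 4.68 (4.30 to 5.64), among 1104 of 11778 genes (9.37%) called higher. All Sprr2 reads together were 30.0-fold higher. In RM1 against RM0, 9 of 9 members were called higher, with a median of 4.08 (2.15 to 5.10) that stayed the same with Sprr2k at its bound, among 722 of 11713 genes (6.16%), and the sum was 21.0-fold higher. These comparisons contain the libraries on which the members were selected, so nothing is read from the counts. With library totals the M1 against M0 calls over all genes changed from 1104 higher and 1569 lower to 601 higher and 2984 lower, and those of RM1 against RM0 from 722 and 922 to 498 and 1493, while the same numbers of Sprr2 members were called higher.

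With IL-4 the members did not all move the same way. In M2 against M0, 0 of 6 members were called, with a median of -0.14 (-0.50 to 0.44). Among all genes 169 of 11762 (1.44%) were called in either direction, so 0 of 6 says little about the members. Sprr2d (-0.50) ranked 11480th from the highest. Sprr2g (0.44) ranked 567th, with an interval that included no difference. In RM2 against RM0, 1 of 6 members was called, Sprr2e, which was lower by -1.01 (-1.67 to -0.464), where 307 of 11748 genes (2.61%) were called in either direction. This call ended with library totals, which gave -0.96. Beyond counting error Sprr2d and Sprr2f were also lower in RM2 than in RM0, at -0.46 and -0.57 (-0.879 to -0.274), and Sprr2g was higher, as given above. For Sprr2h and Sprr2i the intervals included no difference.

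The makeup of the family differed between the libraries, as did its total. Sprr2f gave 19.8% of the Sprr2 reads in M0, 29.8% in M1 and 18.4% in M2, against 25.5%, 32.5% and 20.9% in the irradiated RM0, RM1 and RM2. Its exact 95% interval in M1 (28.7% to 30.9%) and in RM1 (31.8% to 33.2%) lay above those in M0 (15.6% to 24.6%), M2 (14.1% to 23.3%) and RM2 (18.0% to 24.0%). Sprr2i also took a larger share with LPS and IFN-γ, at 8.39% in M1 and 8.37% in RM1 against 4.40% to 4.92% in the other 4 libraries, although its interval in M1 (7.75% to 9.05%) overlapped that in M2 (2.63% to 7.86%). Sprr2g took 22.4% (17.8% to 27.7%) in M2 and 23.0% (20.0% to 26.2%) in RM2 against 11.5% to 14.8% elsewhere, and its interval in M2 overlapped that in M0 (11.1% to 19.2%). Sprr2d took 41.5% (36.0% to 47.1%) in M0 and 38.3% (35.1% to 41.6%) in RM0, against 31.0% to 34.1% in the other 4 libraries. Its interval in M0 overlapped those in M2 (27.0% to 38.0%) and RM2 (30.5% to 37.4%). From M1 to RM1 the share of Sprr2d fell from 34.1% (33.0% to 35.2%) to 31.0% (30.3% to 31.7%). That of Sprr2h fell from 10.5% (9.80% to 11.2%) to 7.70% (7.29% to 8.13%). The scaled levels of both were higher in RM1 than in M1, by 0.86 and 0.55 on the log2 scale. A share within one library does not depend on the scaling between libraries.

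**Figure D4:**
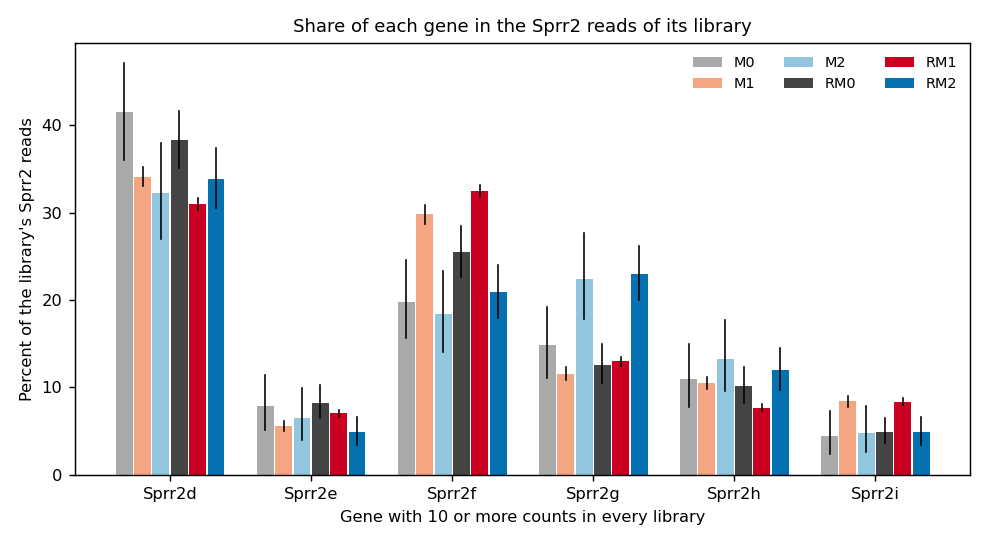
Percent of the Sprr2 reads of each library that belonged to each of the 6 abundant genes, with 1 bar per library and lines for exact 95% binomial intervals of counting error. Sprr2f and Sprr2i have their highest bars in M1 and RM1, and Sprr2g in M2 and RM2.

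Other genes of the cornified envelope were near 0 in these libraries. The other small proline-rich genes, Sprr1a, Sprr1b, Sprr3 and Sprr4, had at most 3 reads in any library, and 3 of the 4 had 0 in all 6. A further 35 genes were of the cornified envelope, such as involucrin, loricrin and the late cornified envelope genes, or lay beside them in the complex, S100 genes left out. Of these, 0 reached 10 reads in any library, 28 had 0 reads throughout and 34 had at most 3. The exception was Pglyrp4, a peptidoglycan recognition protein gene, with 8 reads in RM1. Epithelial markers were at the same level. Of 12 such genes, 0 reached 10 reads, 9 had 0 reads in all libraries, among them the keratins Krt5 and Krt14 and the adhesion genes Epcam and Cdh1, and the summed level ran from 0.0493 CPM in M2 to 0.510 CPM in RM0, against 45.7 CPM for the Sprr2 sum in RM0. The marker with the most reads was Dsp, with 2 in M0, 1 in M1 and 1 in M2, against 9, 2 and 5 in RM0, RM1 and RM2. Among 8 genes for the enzymes and partners of crosslinking, 3 reached 10 reads. Tgm1, the transglutaminase of keratinocytes that joins envelope proteins, had 136 reads in M0, 820 in M1 and 80 in M2, against 210, 1232 and 93 in their irradiated counterparts. It was higher by 3.00 in M1 than in M0 and was called in 0 of the 3 irradiation comparisons, with 0.64 in RM0, 0.41 in RM1 and 0.24 in RM2. Tgm2, another transglutaminase gene, was also called higher in M1 than in M0 (1.07), but gave -0.04 in RM0, -0.60 in RM1 and -0.32 in RM2. Cstb gave 0.85 in M1 against M0, and -0.08, -0.34 and 0.04 in the irradiation comparisons.

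The genes next to the cluster were nearly all silent or close to it. Within 1.5 Mb on either side of the Sprr2d start the tables held 50 rows outside the Sprr2 family, of which 40 had 0 reads in all libraries and 48 had at most 3. S100a10 and S100a11, 1216 and 1181.4 kb away, were the other 2, and neither was called in any of the 7 comparisons. Among the S100 genes, S100a8, a calcium-binding alarmin subunit of myeloid cells, had 4580 reads in M0, 32464 in M1 and 2846 in M2, against 6667, 51228 and 3492 in RM0, RM1 and RM2. It was higher by 3.25 in M1 than in M0 and by 0.56 in RM0 than in M0. Of 7 S100 genes tested in M1 against M0, 2 were called higher, S100a8 and S100a13 (1.26), and 1 lower, S100a4 (-1.04, with 5132 reads against 14163). Among all 11778 genes tested there, 1104 (9.37%) were called higher and 1569 lower. Each irradiation comparison tested 8 S100 genes. For RM1 against M1, 1 was called higher, and for RM0 against M0 and RM2 against M2, 0 were. Of all genes 3.08%, 0.719% and 1.03% were called higher in these comparisons, in the same order. With 8 genes tested, the counts therefore say little about the S100 genes. The call in RM1 was S100a9, the partner of S100a8, with 19 reads against 3.

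**Figure D5:**
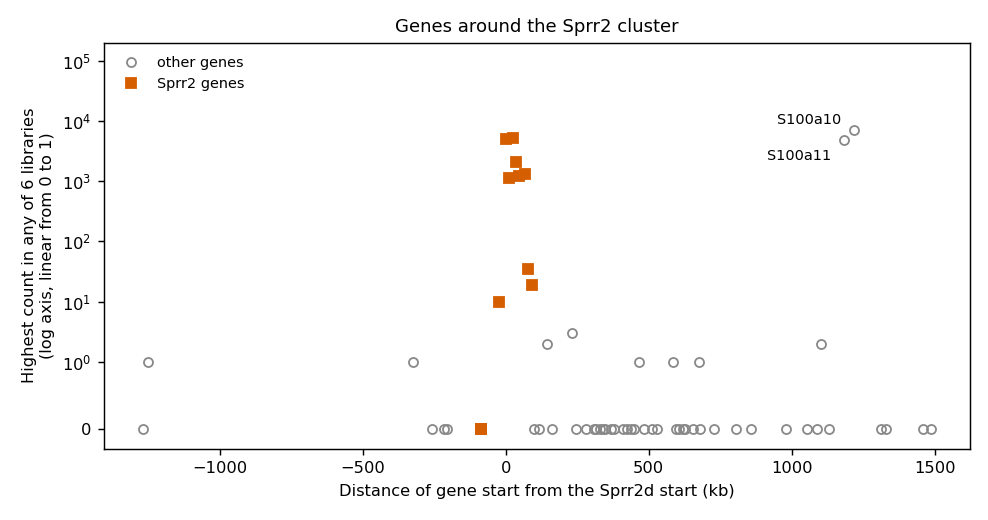
Highest count in any library, on a log axis that is linear from 0 to 1, against the distance of the gene's start from the start of Sprr2d in kb, for Sprr2 genes (squares) and all other genes within 1.5 Mb (open circles). Only S100a10 and S100a11 among the other genes exceed 3 reads.

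By Pearson correlation over the 6 libraries, computed on log2 CPM against the sum of Sprr2 reads for 3418 genes with at least 50 counts in some library and a log2 range of at least 1, the most alike genes were Rapgef5 (0.9965), St3gal1 (0.9965), Gja1 (0.9961), Rgs16 (0.9945) and Ptges (0.9945). They encode a Rap guanine nucleotide exchange factor, a sialyltransferase, a connexin of gap junctions, a regulator of G-protein signaling and a prostaglandin E synthase. The value describes shape alone, over 6 libraries of which M1 and RM1 stood far above the others in Sprr2 reads, and 259 of the 3418 genes exceeded 0.95. In size these genes moved far less than Sprr2. Gja1 was higher by 2.21 in M1 than in M0 and by 0.61 in RM0 than in M0, where the Sprr2 sum was higher by 4.90 and 1.50.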

How the data were processed

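RNA from pooled wells of RAW264.7 macrophages was sequenced as 1 library for each of 6 conditions. The authors counted reads per gene and deposited raw counts without normalization. Per the submitters' processing notes the tools were Trimmomatic 0.36, HISAT2 2.2.1 and HTSeq 0.11.3 with the mm10 genome; their settings for strand and for reads with several matches are not given in the sources used here, so reads shared by near-identical Sprr2 copies may have been lost.

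Samples were grouped by the labels. Scaling factors came from TMM in edgeR 4.0.16 (R 4.3.3), taken over the 11574 genes that reached 10 counts in 3 or more libraries. A prior count of 2 was added for log2 fold changes, which understates the change of low genes. A call needed a 2-fold difference and 10 or more counts in either library, and it compares 2 libraries, not conditions. No fold was given where both had 3 reads or fewer, and a fold against 0 reads was set against 3 reads in that library. Clopper-Pearson intervals at 95% and this limit cover counting error only; PCR copies are not independent molecules. Levels per length used the GENCODE M21 transcripts. The members, gene lists and tests were chosen with earlier results of these data known; the rule for named genes took every member and the 5 genes most alike in pattern, and genes of the lists were named beside small counts after their values were seen. Alternatives were DESeq2 1.42.0 size factors, library totals, a prior count of 0.25, a minimum of 20 counts or none, and a 4-fold threshold. The rest used Python 3.11.15 (scipy 1.17.1, numpy 2.4.6, pandas 2.3.3, biopython 1.88, matplotlib 3.10.9).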

Additional observations from a re-analysis of the deposited data

How the results depend on the processing

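Of 259 alternative values, 238 stayed within the limits set for a changed value and 21 moved. The sign changed in 3 values, none of them called and all with library totals, Sprr2i in M2 against M0 from -0.03 to 0.02, Sprr2h in RM2 against RM0 from -0.05 to 0.01, and for Sprr2g the difference between the RM1 and RM0 ratios from -0.11 to 0.08. A 4-fold threshold left 0 members called in RM0 against M0, 2 in RM1 against M1, 0 in RM2 against M2 and 0 in RM2 against RM0. The 2 in RM1 were Sprr2j-ps and Sprr2k, which had few reads and passed the rule for members only through RM1. Without a minimum count, 1 member was called in M2 against M0, Sprr2j-ps with 5 reads against 1. With library totals, 0 members were called in RM2 against RM0, 8 in RM1 against M1, and the sum of Sprr2 reads gave 1.14 in RM1 against M1, 4.46 in M1 against M0 and 4.14 in RM1 against RM0, while the median of all genes stood at 0.13, -0.46 and -0.25 in these comparisons. The other moved values, also under library totals, were 10 single genes and 2 differences between the RM1 and RM2 ratios whose intervals came to include no difference, that of the sum and that of Sprr2h (-0.48, -1.04 to 0.08). For RM1 against M1 over all genes, library totals called 482 higher and 202 lower, against 353 and 258 with TMM. DESeq2 size factors, a prior count of 0.25 and a minimum of 20 counts moved none of the counts of called members by more than 1.5 times. No replicate could be left out. A model with the state as a block and irradiation as its term was not fitted here, since the M1 and RM1 counts chose the members. Counting error was wide where reads were few, as for Sprr2i with 14 reads in M0 and in M2.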
